A study of Rattus norvegicus with 21 samples.

Results

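The mitotic genes are 40 genes whose products carry a cell through division, from the kinases that start mitosis to the proteins that split the cell. They were taken as a fixed list of names, chosen with earlier results of these data known. Each gene was read from its brightest probe set, by the mean of the 21 arrays, among those annotated with a single gene symbol. Of the 40 genes, 38 could be read in this way, out of 13438 genes measured on the arrays. Tpx2 and Ndc80 had no such probe set and were not analysed here. Readings of the 38 genes lay between 6.63 and 11.47 on a log2 intensity scale, where the highest nonspecific control probe set read 3.88 to 4.17, so every gene was above background on every array.

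Mitosis starts when the kinase Cdk1, bound to a B-type cyclin, becomes active. Plk1 and the Aurora kinases then build the spindle, the kinetochores attach each chromosome to it, and the spindle checkpoint delays separation until all are attached. The anaphase-promoting complex with Cdc20 finally marks securin and cyclin B for destruction, and the cell divides. Most of these genes are transcribed mainly in the G2 phase and in mitosis, so their RNA is low in a population in which few cells divide. Beta cells in the adult pancreas divide rarely, whereas insulinoma lines such as INS-1 grow continuously in culture.

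The cells were INS-1, an insulin-secreting rat line derived from an insulinoma and used as a beta cell model. There were 7 groups of 3 arrays. pCTSH#1, written pCTSH1 in the sample titles, was a line stably transfected with a plasmid for cathepsin H (CTSH), a lysosomal protease. It was 1 of the individual clones made, so a difference between it and another line may belong to that clone. pcDNA carried the empty vector in the same stable way, and INS1 was the untransfected parent. pCTSH#1 and pcDNA were each measured at 0, 6 and 16 h with 150 pg/ml recombinant mouse IL-1β and 5 ng/ml recombinant rat IFNγ, cytokines that immune cells release in inflamed islets, and INS1 only without cytokines. All cells were grown for 3 days before the cytokines were added. There were no untreated arrays at 6 or 16 h, so an effect of the cytokines and an effect of the added hours in culture cannot be told apart.

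Array medians lay between 4.88 and 5.08, and 61.4% to 71.0% of probe sets read above background. Arrays correlated with the others of their group at a mean r of 0.993 to 0.997. All 11 beta cell markers with a probe set were above background on all 21 arrays, with Ins1 at 13.49 to 13.78. Of 6 fibroblast, 6 leukocyte and 3 endothelial markers measured, only the leukocyte marker Cd68 was above background on all 21 arrays. The probe set for rat Ctsh read near background, at 3.85 to 5.08 in pCTSH#1, against 3.48 to 4.18 in pcDNA and 3.62 to 3.85 in INS1, so it is no check of the line's label. Which species' cathepsin H the plasmid held is not given in the sources used here.

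At 16 h with cytokines the mitotic genes were lower in both lines. In pCTSH#1, 38 of the 38 genes fell against 0 h, by a median of 1.10 on the log2 scale, and in pcDNA 37 of 38 fell, with a median change over the 38 genes of -1.14. These medians correspond to levels 2.15-fold lower in pCTSH#1 and 2.21-fold lower in pcDNA. A gene is said here to have risen or fallen where limma's adjusted p was below 0.05 (21 arrays in 1 model of 7 group means, Benjamini-Hochberg adjustment over 31042 probe sets, two-sided). By the same rule 30.1% of all 13438 genes fell in pCTSH#1 and 29.5% in pcDNA, and 25.2% and 25.8% rose. Among the 5276 genes whose mean level lay in the members' own range, 7.54 to 11.06, 41.9% fell in pCTSH#1 and 41.5% in pcDNA, and 35.4% and 35.5% rose, with median changes of -0.07 and -0.06. In both lines the 3 arrays at 16 h lay below the 3 arrays at 0 h for all 38 genes, as they did for 32.6% of all genes in pCTSH#1 and 32.1% in pcDNA (44.7% and 43.8% of genes as bright). In bulk RNA, fewer dividing cells and less RNA of these genes per cell cannot be told apart.

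The sizes of the fall differed widely among the genes. In pCTSH#1, 3 genes fell by more than 2 log2 units, 19 by 1 to 2 units and 16 by less than 1 unit. In pcDNA the change was beyond -2 for 4 genes, between -1 and -2 for 16 genes and smaller for 18 genes. Every change lay between -2.23 and -0.39 in pCTSH#1 and between -2.19 and -0.13 in pcDNA. Most of the fall came after 6 h. Between 6 and 16 h 37 genes fell in each line, by a median of 0.98 in pCTSH#1 and 1.10 in pcDNA, where 25.2% and 25.1% of all genes fell. The gene that did not pass was Kif15 in each line, and the call of Mki67 in pCTSH#1 was lost without the first array at 6 h (adjusted p = 0.0593), and that of Ttk in pcDNA without the first array at 6 h or the third at 16 h (adjusted p up to 0.0902). At 6 h the median change from 0 h was -0.19 in both lines.

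The mean deviation of the 38 genes from their own means over all arrays gives 1 value per array. In pCTSH#1 it was 0.43, 0.45 and 0.39 at 0 h, 0.30, 0.27 and 0.22 at 6 h and -0.84, -0.73 and -0.69 at 16 h. In pcDNA it was 0.32, 0.39 and 0.34 at 0 h, 0.24, 0.22 and 0.16 at 6 h and -0.86, -0.83 and -0.87 at 16 h. The INS1 arrays stood at 0.38, 0.35 and 0.35, within the range of the transfected lines at 0 h. No array at 16 h came near any array at 0 or 6 h.

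**Figure D1:**
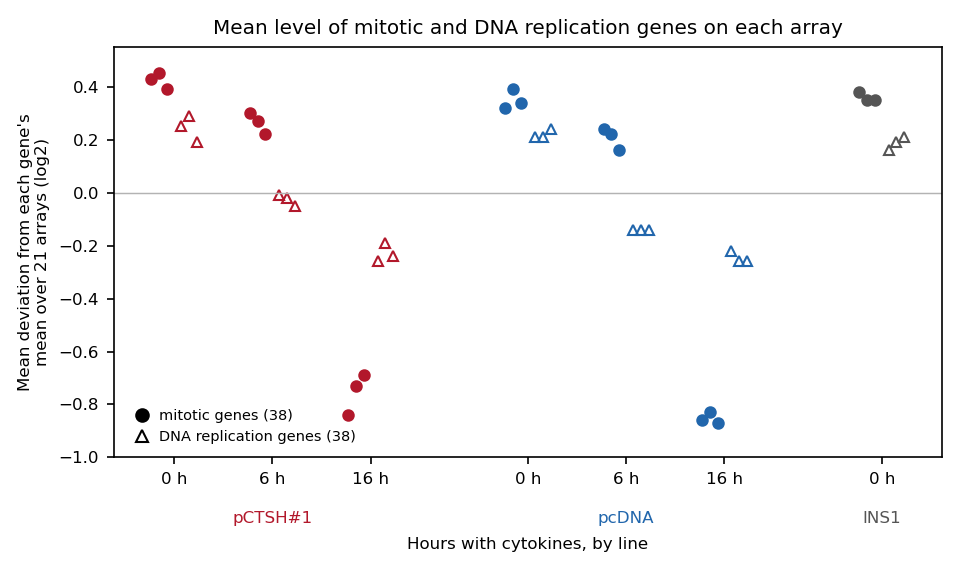
Mean deviation (log2) of the 38 mitotic genes (filled circles) and of 38 DNA replication genes (open triangles) on each of the 21 arrays, by line and hours with cytokines; zero is each gene's own mean over all arrays. The mitotic genes lie at 0.39 to 0.45 in pCTSH#1 and 0.32 to 0.39 in pcDNA at 0 h, slightly lower at 6 h, and at -0.84 to -0.69 and -0.87 to -0.83 at 16 h.

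Other readings also differed between the times. Array medians were 4.88 to 4.97 in pCTSH#1 at 16 h, against 5.01 to 5.04 at 0 h, and 4.92 to 4.98 in pcDNA at 16 h, against 5.01 to 5.08 at 0 h. The beta-actin control read 0.60 to 0.68 log2 units higher at its 3′ than at its 5′ end in pCTSH#1 at 16 h, against 0.77 to 0.99 at 0 h. In pcDNA the same difference was 0.74 to 0.86 at 16 h, against 0.79 to 0.98 at 0 h. The mean level of the 11 beta cell markers in pCTSH#1 was 11.96 to 11.97 at 0 h, 11.43 to 11.52 at 6 h and 11.02 to 11.22 at 16 h. In pcDNA it was 11.87 to 11.90 at 0 h, 11.18 to 11.34 at 6 h and 10.99 to 11.06 at 16 h, so it was already lower at 6 h. The transcription factor Nkx6-1 moved most, with means of 9.04, 6.07 and 5.26 at 0, 6 and 16 h in pCTSH#1 and 8.46, 5.32 and 5.45 in pcDNA, while Ins1 had means of 13.72, 13.69 and 13.55 in pCTSH#1 and 13.73, 13.68 and 13.58 in pcDNA. The 6 leukocyte markers averaged 4.13 to 4.28 in pCTSH#1 at 16 h, against 3.83 to 3.87 at 0 h. In pcDNA they averaged 4.0 to 4.12 at 16 h, against 3.78 to 3.81 at 0 h. Cd68 had means of 5.89 in pCTSH#1 and 5.52 in pcDNA at 16 h, against 4.65 and 4.69 at 0 h. Lyz2 had 4.86 and 4.63, against 4.26 and 4.14, and Ptprc 3.59 and 3.84, against 3.67 and 3.77. The other 3, Csf1r, Adgre1 and Cd3e, stayed at background on all arrays. The 6 fibroblast markers averaged 3.68 to 3.82 in pCTSH#1 at 16 h, against 3.82 to 4.10 at 0 h, and 3.68 to 3.75 in pcDNA at 16 h, against 3.95 to 4.12 at 0 h. Among them Pdgfra had means of 3.96 in pCTSH#1 and 3.95 in pcDNA at 16 h, against 5.41 and 5.82 at 0 h, and Dcn and Lum were at background on all arrays. The 3 endothelial markers averaged 3.6 to 3.72 in pCTSH#1 at 16 h, against 3.72 to 3.89 at 0 h, and 3.54 to 3.72 in pcDNA at 16 h, against 3.52 to 3.91 at 0 h. The part of these readings in the fall of the mitotic genes was not tested.

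**Figure D2:**
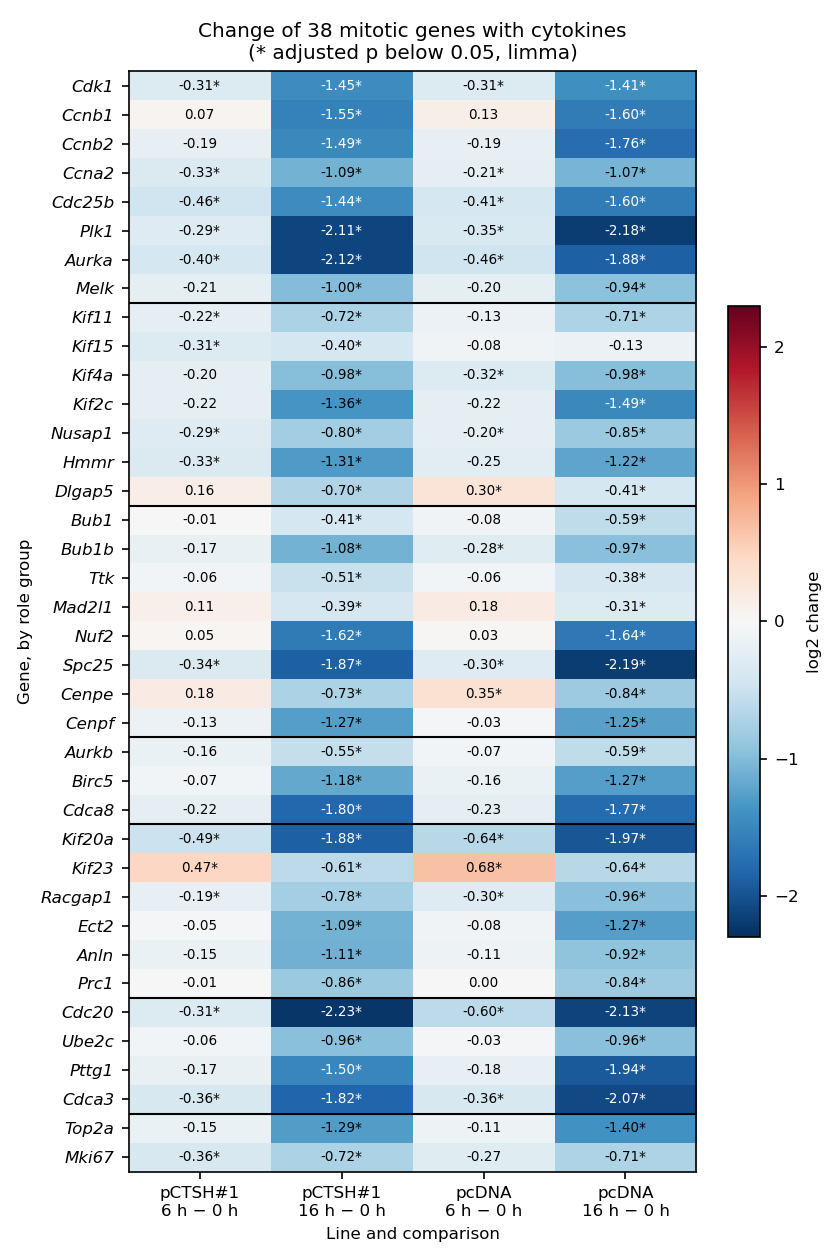
Log2 change of each of the 38 mitotic genes at 6 and 16 h against 0 h in pCTSH#1 (left pair of columns) and pcDNA (right pair), grouped by role; an asterisk marks an adjusted p below 0.05 (limma). At 16 h every cell is negative, from -2.23 (Cdc20 in pCTSH#1) to -0.13 (Kif15 in pcDNA), while at 6 h the cells run from -0.64 (Kif20a in pcDNA) to 0.68 (Kif23 in pcDNA).

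Many mitotic promoters carry 2 short elements, the cell cycle genes homology region (CHR, TTTGAA) and the CCAAT box, which bind the DREAM and MuvB complexes and the factor NF-Y. RefSeq promoter windows (rat build GRCr8, 250 bases before to 50 after an annotated start) were matched by gene ID for 34 of the 38 genes, with 35 windows since Kif2c has 2 starts. Both motifs were searched on both strands. A CHR was found in 23 of the 35 windows (65.7%), against 18.3% of all 33469 rat windows. A CCAAT box was found in 25 windows (71.4%), against 37.5% of all windows. Both motifs were in 18 windows (51.4%), against 7.41% of all, and neither was in 5 (14.3%), against 51.6% of all. In Cdca8 and Mki67 a CHR and a CCAAT box overlap by 1 base. All 23 genes with a CHR had one at or after position -100 from the start. The median change at 16 h in pcDNA was -1.25 for the 23 genes with a CHR in the window. It was -1.49 for the 11 genes without one there, which include Aurka.

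The stretches of 8 genes are printed from 150 bases before to 30 after the start, with CHR and CCAAT matches in capitals. They are shown for 3 of the genes with the largest falls (Plk1, Cdc20, Spc25), for Cdk1, for the 3 genes that differed between the lines at 16 h (Pttg1, Spc25, Ccnb2), for Kif23, which rose before it fell, and for Aurka, which fell steeply with neither motif in its window. Coordinates are those of GRCr8. The printed Aurka bases have an ATG just after the annotated start, so this window may not be the promoter. Whether Aurka has either motif elsewhere was not tested.
The Plk1 stretch is chr1:186147508-186147687 on the plus strand. The Cdc20 stretch is chr5:137255770-137255949 on the minus strand. The Cdk1 stretch is chr20:19265143-19265322 on the plus strand. The Ccnb2 stretch is chr8:79981629-79981808 on the minus strand. The Spc25 stretch is chr3:74396689-74396868 on the minus strand. The Pttg1 stretch is chr10:28406297-28406476 on the minus strand. The Kif23 stretch is chr8:71320555-71320734 on the minus strand. The Aurka stretch is chr3:181560740-181560919 on the minus strand.
Plk1: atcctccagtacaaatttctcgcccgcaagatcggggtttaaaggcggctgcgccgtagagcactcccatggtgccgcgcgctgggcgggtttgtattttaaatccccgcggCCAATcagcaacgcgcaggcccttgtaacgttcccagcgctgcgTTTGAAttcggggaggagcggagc
Cdc20: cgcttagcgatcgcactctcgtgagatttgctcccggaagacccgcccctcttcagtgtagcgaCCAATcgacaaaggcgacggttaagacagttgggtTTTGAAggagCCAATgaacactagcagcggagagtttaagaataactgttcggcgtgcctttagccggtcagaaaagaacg
Cdk1: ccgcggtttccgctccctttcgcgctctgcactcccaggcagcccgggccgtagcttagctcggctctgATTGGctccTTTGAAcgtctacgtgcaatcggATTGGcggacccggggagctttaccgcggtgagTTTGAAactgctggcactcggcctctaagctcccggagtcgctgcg
Ccnb2: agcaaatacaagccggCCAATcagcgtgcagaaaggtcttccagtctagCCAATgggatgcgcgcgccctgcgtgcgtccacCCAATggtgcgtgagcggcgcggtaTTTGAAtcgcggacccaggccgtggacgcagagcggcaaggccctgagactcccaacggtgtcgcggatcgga
Spc25: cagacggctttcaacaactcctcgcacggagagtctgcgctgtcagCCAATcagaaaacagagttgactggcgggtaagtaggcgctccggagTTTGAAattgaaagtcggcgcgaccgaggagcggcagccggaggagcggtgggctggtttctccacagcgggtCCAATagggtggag
Pttg1: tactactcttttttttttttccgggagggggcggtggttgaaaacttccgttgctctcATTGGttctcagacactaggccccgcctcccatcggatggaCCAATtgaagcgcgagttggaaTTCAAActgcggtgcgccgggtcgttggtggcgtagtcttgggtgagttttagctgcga
Kif23: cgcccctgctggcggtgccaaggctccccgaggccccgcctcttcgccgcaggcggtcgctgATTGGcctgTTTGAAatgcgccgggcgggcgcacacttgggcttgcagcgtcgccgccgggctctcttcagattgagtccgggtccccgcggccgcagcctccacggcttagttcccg
Aurka: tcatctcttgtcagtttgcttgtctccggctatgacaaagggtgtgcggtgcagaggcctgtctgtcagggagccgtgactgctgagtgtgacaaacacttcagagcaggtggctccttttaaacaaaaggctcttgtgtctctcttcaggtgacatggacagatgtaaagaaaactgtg

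**Figure D3:**
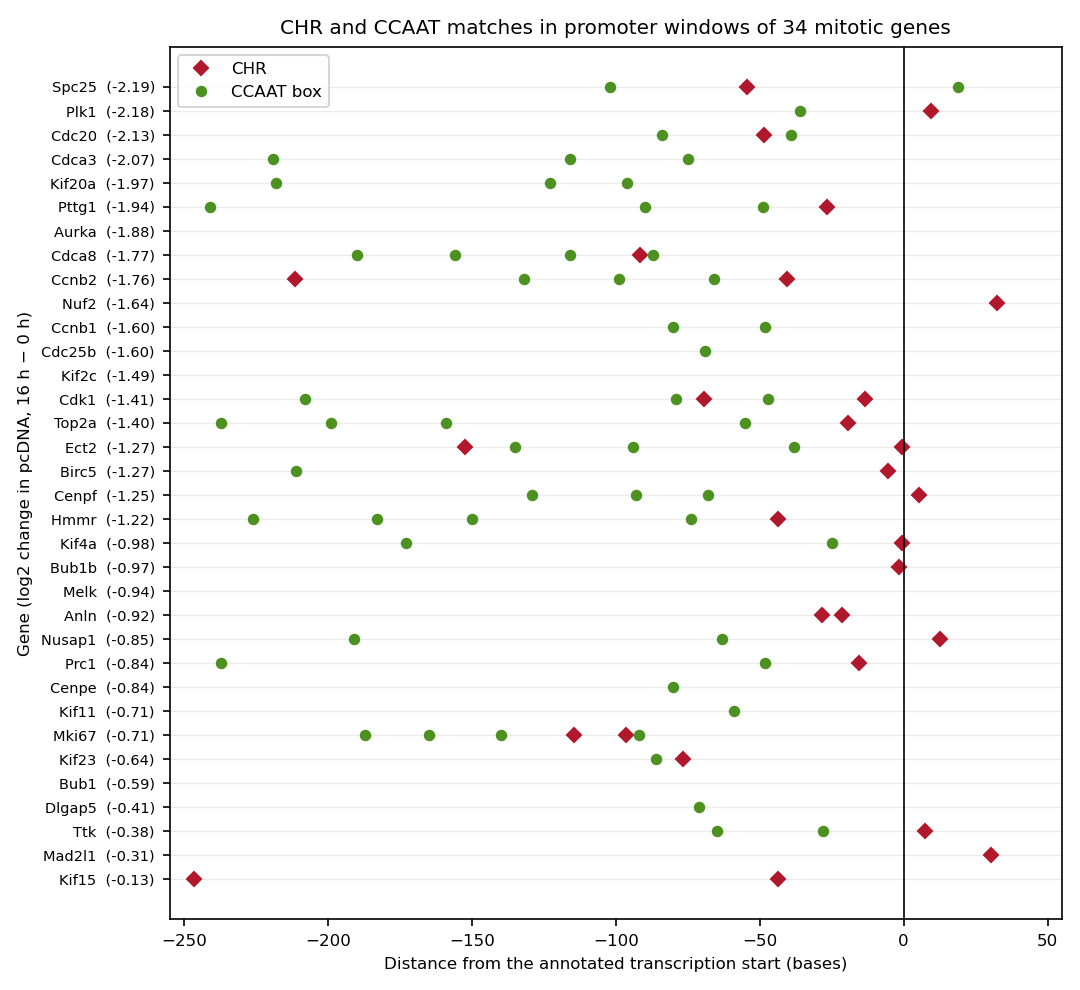
Positions of CHR (diamonds) and CCAAT (circles) matches in the promoter windows of 34 mitotic genes, as bases from the annotated start, with genes ordered by their log2 change in pcDNA at 16 h (in brackets). Most CHR matches lie near the start, and genes with and without one are found along the whole order.

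The kinases and cyclins of mitotic entry all fell at 16 h. All 8 genes fell in pCTSH#1, with changes of -2.12 to -1.0, and all 8 fell in pcDNA, with changes of -2.18 to -0.94. Plk1, the kinase that acts on centrosomes, kinetochores and cytokinesis, was among the steepest. In pCTSH#1 its level was 9.85, 9.85 and 9.85 at 0 h, 9.57, 9.54 and 9.57 at 6 h, and 7.68, 7.74 and 7.78 at 16 h. In pcDNA it was 9.73, 9.87 and 9.76 at 0 h, 9.30, 9.45 and 9.56 at 6 h, and 7.51, 7.69 and 7.63 at 16 h, with INS1 at 9.69, 9.76 and 9.90. The arrays at 16 h lay far below all others, and those at 6 h lay just below those at 0 h. Plk1 changed by -2.11 ± 0.08 in pCTSH#1 (adjusted p = 2.85e-14) and by -2.18 ± 0.08 in pcDNA (adjusted p = 1.97e-14).

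Aurka, the Aurora kinase of the centrosome and spindle poles, read 9.54, 9.61 and 9.43 at 0 h, 9.18, 9.13 and 9.05 at 6 h, and 7.23, 7.40 and 7.57 at 16 h in pCTSH#1. In pcDNA it read 9.53, 9.61 and 9.24 at 0 h, 9.03, 8.98 and 9.00 at 6 h, and 7.47, 7.72 and 7.56 at 16 h. It fell by 6 h in both lines, by 0.40 ± 0.10 in pCTSH#1 and 0.46 ± 0.10 in pcDNA (adjusted p = 0.00483 and 0.00124), and by 16 h the changes were -2.12 ± 0.10 in pCTSH#1 and -1.88 ± 0.10 in pcDNA. Melk, a cell-cycle kinase, moved least of this group. Its level in pCTSH#1 was 9.61, 9.91 and 9.59 at 0 h, 9.48, 9.53 and 9.48 at 6 h, and 8.66, 8.71 and 8.75 at 16 h, and in pcDNA 9.52, 9.65 and 9.56 at 0 h, 9.34, 9.43 and 9.37 at 6 h, and 8.63, 8.63 and 8.66 at 16 h. Its 3 arrays at 16 h were close together in each line, about 1 log2 unit below 0 h, with changes of -1.0 ± 0.08 in pCTSH#1 and -0.94 ± 0.08 in pcDNA. Cdk1, the central mitotic kinase, changed by -1.45 ± 0.08 in pCTSH#1 and -1.41 ± 0.08 in pcDNA, and Ccnb1, its main cyclin partner, by -1.55 ± 0.10 in pCTSH#1 and -1.60 ± 0.10 in pcDNA. Cdc25b, the phosphatase that removes inhibitory phosphates from Cdk1, changed by -1.44 ± 0.09 in pCTSH#1 and -1.60 ± 0.09 in pcDNA, and Ccna2, the cyclin of S phase and G2, by -1.09 ± 0.07 in pCTSH#1 and -1.07 ± 0.07 in pcDNA.

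**Figure D4:**
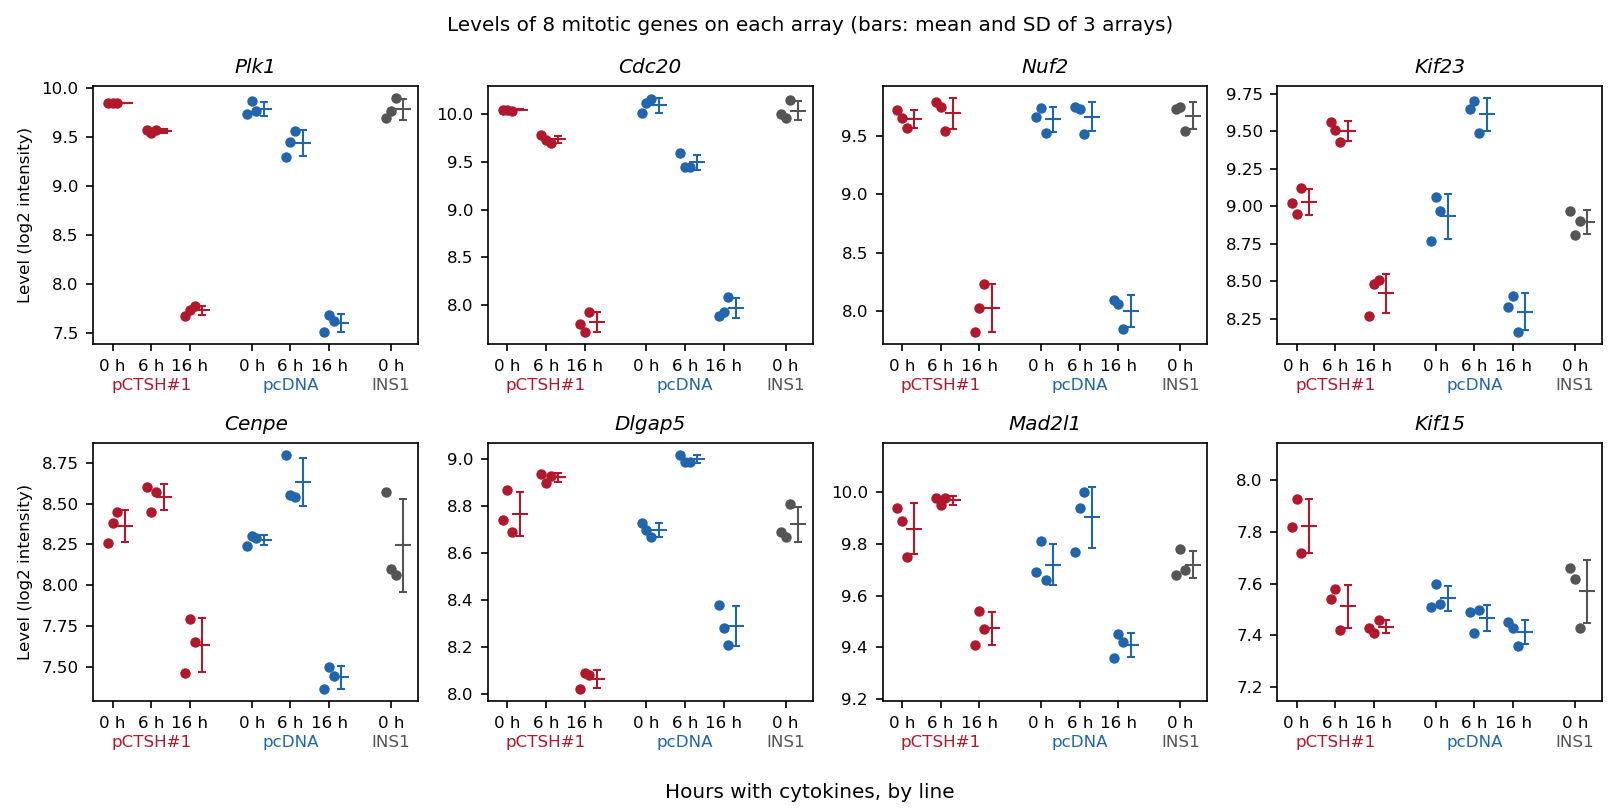
Levels (log2 intensity) of 8 mitotic genes on each array, with the mean and SD of 3 arrays beside the points, by line and hours with cytokines; each panel has its own axis. Plk1 and Cdc20 fall in steps, Nuf2 falls only by 16 h, Kif23, Cenpe and Dlgap5 are highest at 6 h, and Mad2l1 falls little. Kif15 moves in pCTSH#1 from a higher level at 0 h than in pcDNA, a difference at 0 h that did not pass the test.

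Among the spindle motors and microtubule proteins the median change at 16 h was -0.80 in pCTSH#1 and -0.85 in pcDNA. All 7 measured genes fell in pCTSH#1 (-1.36 to -0.40), and 6 of 7 fell in pcDNA, where changes over the 7 genes ran from -1.49 to -0.13. Kif2c, a kinesin that takes microtubule ends apart at centromeres, read 9.50, 9.34 and 9.49 at 0 h, 9.27, 9.32 and 9.09 at 6 h, and 7.99, 8.27 and 7.99 at 16 h in pCTSH#1. In pcDNA its level was 9.35, 9.42 and 9.48 at 0 h, 9.33, 9.26 and 9.01 at 6 h, and 7.90, 8.10 and 7.78 at 16 h. The 16 h arrays lay below all others in both lines, with changes of -1.36 ± 0.10 in pCTSH#1 and -1.49 ± 0.10 in pcDNA. Hmmr, a protein of spindle microtubules that also binds hyaluronan, read 10.25, 10.20 and 10.00 at 0 h, 9.88, 9.88 and 9.71 at 6 h, and 8.78, 8.91 and 8.83 at 16 h in pCTSH#1 and 10.07, 10.15 and 10.07 at 0 h, 9.96, 9.90 and 9.69 at 6 h, and 8.81, 8.96 and 8.87 at 16 h in pcDNA. It changed by -1.31 ± 0.10 in pCTSH#1 and -1.22 ± 0.10 in pcDNA at 16 h.

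Kif15, a motor that helps to hold spindle poles apart, was the exception. Its level in pCTSH#1 was 7.82, 7.93 and 7.72 at 0 h, 7.54, 7.58 and 7.42 at 6 h, and 7.43, 7.41 and 7.46 at 16 h. In pcDNA it was 7.51, 7.60 and 7.52 at 0 h, 7.49, 7.41 and 7.50 at 6 h, and 7.45, 7.43 and 7.36 at 16 h, and in INS1 7.66, 7.62 and 7.43. The pCTSH#1 arrays at 0 h lay above all others, and the remaining arrays of both transfected lines lay within 7.36 and 7.60. Between the lines at 0 h neither Kif15 nor any other gene of this role group passed the test (smallest adjusted p = 0.0816). Kif15 passed there when the brighter 50% of probe sets were tested (adjusted p = 0.0257) or with array weights (0.0401). Kif15 fell in pCTSH#1 at 6 h by 0.31 ± 0.08 (adjusted p = 0.00419) and at 16 h by 0.40 ± 0.08 (0.00024), whereas in pcDNA the 16 h change was -0.13 ± 0.08 (adjusted p = 0.184). The difference between these responses did not pass the test, at -0.26 ± 0.11 for 16 h (adjusted p = 0.554). Kif11, the motor that pushes the spindle poles apart, changed by -0.72 ± 0.07 in pCTSH#1 and -0.71 ± 0.07 in pcDNA. Kif4a, a motor on chromosome arms, changed by -0.98 ± 0.08 in pCTSH#1 and -0.98 ± 0.08 in pcDNA, and the microtubule binder Nusap1 by -0.80 ± 0.07 in pCTSH#1 and -0.85 ± 0.07 in pcDNA.

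Kinetochore and checkpoint genes also fell at 16 h. All 8 measured genes fell at 16 h in both lines, from -1.87 to -0.39 in pCTSH#1 and from -2.19 to -0.31 in pcDNA. Spc25 and Nuf2, subunits of the Ndc80 complex that grips microtubules, had the steepest falls of the group. Spc25 read 9.11, 9.09 and 9.06 at 0 h, 8.76, 8.77 and 8.72 at 6 h, and 7.0, 7.25 and 7.40 at 16 h in pCTSH#1. In pcDNA it read 9.00, 9.04 and 9.01 at 0 h, 8.73, 8.76 and 8.66 at 6 h, and 6.63, 6.91 and 6.93 at 16 h. It changed by -1.87 ± 0.09 in pCTSH#1 and -2.19 ± 0.09 in pcDNA, and every pcDNA array at 16 h lay below every pCTSH#1 array of that time. Nuf2 read 9.72, 9.65 and 9.57 at 0 h, 9.79, 9.75 and 9.54 at 6 h, and 7.82, 8.03 and 8.23 at 16 h in pCTSH#1, and 9.66, 9.74 and 9.53 at 0 h, 9.75, 9.73 and 9.52 at 6 h, and 8.10, 8.06 and 7.85 at 16 h in pcDNA. It did not pass the test at 6 h, with changes of 0.05 ± 0.11 in pCTSH#1 and 0.03 ± 0.11 in pcDNA, and at 16 h its changes were -1.62 ± 0.11 in pCTSH#1 and -1.64 ± 0.11 in pcDNA.

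Among the checkpoint genes, Mad2l1, which holds back Cdc20 until chromosomes are attached, read 9.94, 9.89 and 9.75 at 0 h, 9.98, 9.95 and 9.98 at 6 h, and 9.41, 9.54 and 9.47 at 16 h in pCTSH#1. In pcDNA its level was 9.69, 9.81 and 9.66 at 0 h, 9.77, 9.94 and 10.00 at 6 h, and 9.36, 9.45 and 9.42 at 16 h. The arrays at 6 h lay above those at 0 h in pCTSH#1 and overlapped them in pcDNA, and those at 16 h were below both, with 16 h changes of -0.39 ± 0.08 in pCTSH#1 (adjusted p = 0.000273) and -0.31 ± 0.08 in pcDNA (0.00249). With arrays centred on their medians the pcDNA call of Mad2l1 was lost (adjusted p = 0.0507). Of the checkpoint kinases, Bub1 changed by -0.41 ± 0.09 in pCTSH#1 and -0.59 ± 0.09 in pcDNA, and Ttk by -0.51 ± 0.10 in pCTSH#1 and -0.38 ± 0.10 in pcDNA. Bub1b, which with Mad2l1 inhibits the anaphase-promoting complex, changed by -1.08 ± 0.09 in pCTSH#1 and -0.97 ± 0.09 in pcDNA. Cenpf, a large protein of the outer kinetochore, changed by -1.27 ± 0.12 in pCTSH#1 and -1.25 ± 0.12 in pcDNA.

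The 3 genes of the chromosomal passenger complex, which corrects faulty attachments, all fell at 16 h in both lines. Cdca8 (borealin) read 8.94, 8.87 and 8.70 at 0 h, 8.72, 8.61 and 8.51 at 6 h, and 6.92, 6.94 and 7.24 at 16 h in pCTSH#1. Its pcDNA arrays read 8.86, 8.84 and 8.56 at 0 h, 8.49, 8.59 and 8.49 at 6 h, and 7.04, 6.91 and 7.0 at 16 h. It changed by -1.80 ± 0.10 in pCTSH#1 and -1.77 ± 0.10 in pcDNA. Birc5 (survivin), a subunit that docks the complex on chromosomes, read 9.55, 9.58 and 9.60 at 0 h, 9.58, 9.44 and 9.50 at 6 h, and 8.38, 8.47 and 8.34 at 16 h in pCTSH#1, and 9.59, 9.77 and 9.81 at 0 h, 9.56, 9.61 and 9.53 at 6 h, and 8.61, 8.50 and 8.24 at 16 h in pcDNA. Its arrays at 6 h overlapped those at 0 h, and its 16 h changes were -1.18 ± 0.09 in pCTSH#1 and -1.27 ± 0.09 in pcDNA. Aurkb, the kinase of the complex, moved least, with levels of 9.44, 9.61 and 9.59 at 0 h, 9.44, 9.41 and 9.32 at 6 h, and 9.10, 8.88 and 9.02 at 16 h in pCTSH#1. In pcDNA its levels were 9.34, 9.35 and 9.47 at 0 h, 9.35, 9.29 and 9.31 at 6 h, and 8.88, 8.83 and 8.67 at 16 h. Its 16 h arrays lay below all others, with changes of -0.55 ± 0.08 in pCTSH#1 and -0.59 ± 0.08 in pcDNA.

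The 6 genes of the spindle midzone and cytokinesis all fell at 16 h in both lines. Kif20a, a kinesin of the central spindle, fell most. It read 9.93, 10.05 and 10.03 at 0 h, 9.63, 9.50 and 9.40 at 6 h, and 8.02, 8.16 and 8.17 at 16 h in pCTSH#1. Its pcDNA arrays read 10.00, 10.01 and 10.14 at 0 h, 9.54, 9.46 and 9.24 at 6 h, and 7.92, 8.09 and 8.22 at 16 h. Each time lay below the one before it with no overlap of arrays, with changes of -0.49 ± 0.09 in pCTSH#1 and -0.64 ± 0.09 in pcDNA at 6 h, and of -1.88 ± 0.09 in pCTSH#1 and -1.97 ± 0.09 in pcDNA at 16 h. Ect2, which is needed to form the contractile ring, read 11.21, 11.17 and 10.98 at 0 h, 11.09, 11.11 and 11.03 at 6 h, and 9.89, 10.10 and 10.10 at 16 h in pCTSH#1, and 11.00, 11.09 and 11.05 at 0 h, 10.99, 10.98 and 10.94 at 6 h, and 9.76, 9.74 and 9.83 at 16 h in pcDNA. Its arrays at 6 h stood close to those at 0 h, and its 16 h changes were -1.09 ± 0.08 in pCTSH#1 and -1.27 ± 0.08 in pcDNA. Racgap1, the partner of Kif23 at the midzone, changed by -0.78 ± 0.07 in pCTSH#1 and -0.96 ± 0.07 in pcDNA, the ring scaffold Anln by -1.11 ± 0.08 in pCTSH#1 and -0.92 ± 0.08 in pcDNA, and the microtubule bundler Prc1 by -0.86 ± 0.07 in pCTSH#1 and -0.84 ± 0.07 in pcDNA.

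Kif23, the motor that with Racgap1 forms centralspindlin, was highest at 6 h. In pCTSH#1 its level was 9.02, 8.95 and 9.12 at 0 h, 9.56, 9.51 and 9.43 at 6 h, and 8.27, 8.48 and 8.51 at 16 h. In pcDNA it was 8.77, 9.06 and 8.97 at 0 h, 9.65, 9.70 and 9.49 at 6 h, and 8.33, 8.4 and 8.16 at 16 h. In both lines the arrays at 6 h lay above, and those at 16 h below, all arrays at 0 h. At 6 h Kif23 rose by 0.47 ± 0.10 in pCTSH#1 (adjusted p = 0.000838) and by 0.68 ± 0.10 in pcDNA (1.13e-05). At 16 h it changed by -0.61 ± 0.10 in pCTSH#1 (1.95e-05) and -0.64 ± 0.10 in pcDNA (1.12e-05). Its second, dimmer probe set read a change of -0.01 at 16 h in pCTSH#1 and -0.75 in pcDNA, and with the mean of both probe sets the 16 h call in pCTSH#1 was lost (adjusted p = 0.058).

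Of the role groups as listed here, that of anaphase and mitotic exit had the steepest median fall. Its median was -1.66 over 4 genes in pCTSH#1 and -2.0 in pcDNA. The group includes Cdca3, whose action on Wee1 belongs to mitotic entry, and its median without Cdca3 was not computed. Cdc20, which turns on the anaphase-promoting complex, read 10.05, 10.05 and 10.04 at 0 h, 9.78, 9.73 and 9.70 at 6 h, and 7.80, 7.72 and 7.93 at 16 h in pCTSH#1. In pcDNA it read 10.01, 10.12 and 10.16 at 0 h, 9.59, 9.45 and 9.45 at 6 h, and 7.88, 7.93 and 8.08 at 16 h. Its level stepped down at each time in both lines, and the 16 h changes were -2.23 ± 0.08 in pCTSH#1 (adjusted p = 1.47e-14) and -2.13 ± 0.08 in pcDNA (adjusted p = 2.9e-14). Cdca3, a protein that promotes the loss of the mitotic inhibitor Wee1, read 9.56, 9.59 and 9.38 at 0 h, 9.16, 9.15 and 9.15 at 6 h, and 7.53, 7.72 and 7.83 at 16 h in pCTSH#1, and 9.43, 9.47 and 9.31 at 0 h, 8.95, 9.12 and 9.07 at 6 h, and 7.58, 7.23 and 7.19 at 16 h in pcDNA. It changed by -1.82 ± 0.11 in pCTSH#1 and -2.07 ± 0.11 in pcDNA at 16 h.

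Pttg1 is securin, the protein that keeps separase inactive until anaphase. It read 10.87, 10.98 and 10.85 at 0 h, 10.75, 10.73 and 10.70 at 6 h, and 9.35, 9.43 and 9.43 at 16 h in pCTSH#1. In pcDNA it read 10.93, 10.95 and 10.90 at 0 h, 10.72, 10.75 and 10.77 at 6 h, and 8.94, 9.05 and 8.99 at 16 h. It changed by -1.5 ± 0.07 in pCTSH#1 and -1.94 ± 0.07 in pcDNA, and the 3 pcDNA arrays at 16 h all lay below the 3 pCTSH#1 arrays. Ube2c, the ubiquitin-conjugating enzyme of the anaphase-promoting complex, was the brightest of the 38 genes and moved least of this group. Its levels were 11.39, 11.43 and 11.27 at 0 h, 11.34, 11.26 and 11.30 at 6 h, and 10.26, 10.47 and 10.49 at 16 h in pCTSH#1, and 11.32, 11.35 and 11.29 at 0 h, 11.22, 11.27 and 11.39 at 6 h, and 10.37, 10.30 and 10.41 at 16 h in pcDNA. The change at 16 h was -0.96 ± 0.08 in pCTSH#1 and -0.96 ± 0.08 in pcDNA.

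Top2a, the enzyme that untangles sister DNA strands, and Mki67, the Ki-67 antigen used to stain dividing cells, both fell at 16 h. Top2a read 10.88, 10.96 and 10.97 at 0 h, 10.82, 10.78 and 10.76 at 6 h, and 9.53, 9.76 and 9.65 at 16 h in pCTSH#1, and 10.84, 10.87 and 10.82 at 0 h, 10.81, 10.75 and 10.63 at 6 h, and 9.39, 9.38 and 9.54 at 16 h in pcDNA. It changed by -1.29 ± 0.08 in pCTSH#1 and -1.40 ± 0.08 in pcDNA. Mki67 read 10.96, 10.75 and 11.07 at 0 h, 10.67, 10.45 and 10.57 at 6 h, and 10.22, 10.18 and 10.22 at 16 h in pCTSH#1, and 10.82, 10.74 and 10.84 at 0 h, 10.70, 10.50 and 10.39 at 6 h, and 10.01, 10.01 and 10.25 at 16 h in pcDNA. Its 16 h arrays lay below all others in both lines, with changes of -0.72 ± 0.11 in pCTSH#1 and -0.71 ± 0.11 in pcDNA.

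At 6 h the picture was mixed. In pCTSH#1, 15 of 38 genes fell, 1 rose and 22 did not pass the test, where 21.3% of all genes fell and 13.0% rose. In pcDNA, 13 of 38 genes fell, 3 rose and 22 did not pass, where 24.6% of all genes fell and 14.5% rose. Among genes as bright as the members, 31.3% fell and 18.6% rose in pCTSH#1, and 35.6% fell and 20.1% rose in pcDNA, so the members' falls were near these shares, while fewer of the members rose than in these shares. The genes that fell in both lines at 6 h were 11: Cdk1, Ccna2, Cdc25b, Plk1, Aurka, Nusap1, Spc25, Kif20a, Racgap1, Cdc20 and Cdca3. Of these, Cdk1, Cdc25b, Aurka, Kif20a and Cdc20 passed in both lines under every alternative and with any 1 array left out. Cyclic loess normalization left 8 of the 15 calls in pCTSH#1 that fell, ending those of Plk1, Kif11, Kif15, Hmmr, Spc25, Racgap1 and Cdca3. In pcDNA it left 8 of the 13 falls, ending those of Ccna2, Nusap1, Bub1b, Spc25 and Cdca3, and 4 genes rose. Over all 31042 probe sets, 3327 rose and 4977 fell at 6 h in pCTSH#1, against 3916 and 3636 after cyclic loess, and in pcDNA 3757 rose and 5734 fell, against 4512 and 4228. Without the second pcDNA array at 0 h, 10 genes passed in pcDNA, against 16 with all arrays. Leaving out 1 array ended the 6 h calls of Kif11, Hmmr, Racgap1, Cdca3 and Mki67 in pCTSH#1 for at least 1 choice of array, and those of Ccna2, Nusap1, Bub1b, Spc25, Cdca3 and Cenpe in pcDNA. The calls of Racgap1 in pCTSH#1 and Ccna2 in pcDNA were lost whichever of the 6 arrays compared was left out.

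Of the genes that rose at 6 h, Kif23 rose in both lines and held under every alternative. Dlgap5, which steadies the microtubule bundles at kinetochores, read 8.74, 8.87 and 8.69 at 0 h, 8.94, 8.90 and 8.93 at 6 h, and 8.02, 8.09 and 8.08 at 16 h in pCTSH#1. In pcDNA it read 8.73, 8.70 and 8.67 at 0 h, 9.02, 8.99 and 8.99 at 6 h, and 8.38, 8.28 and 8.21 at 16 h. The arrays at 6 h lay above those at 0 h in both lines, and the change passed in pcDNA at 0.30 ± 0.07 (adjusted p = 0.00282) but not in pCTSH#1 at 0.16 ± 0.07 (0.121). The difference between these responses was -0.14 ± 0.10 (0.99). Cenpe, a motor that moves chromosomes to the spindle middle, read 8.26, 8.38 and 8.45 at 0 h, 8.60, 8.45 and 8.57 at 6 h, and 7.46, 7.79 and 7.65 at 16 h in pCTSH#1, and 8.24, 8.30 and 8.29 at 0 h, 8.80, 8.55 and 8.54 at 6 h, and 7.36, 7.50 and 7.44 at 16 h in pcDNA. Its 6 h change was 0.18 ± 0.12 in pCTSH#1 (adjusted p = 0.322) and 0.35 ± 0.12 in pcDNA (0.0274). The pcDNA call of Cenpe was lost without any 1 of the 3 pcDNA arrays at 0 h (adjusted p = 0.0786, 0.0529 and 0.0569) or the first at 6 h (0.146).

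The cathepsin H clone pCTSH#1 was set against the empty vector line pcDNA. In this comparison an effect of cathepsin H and a trait of the clone cannot be told apart. Without cytokines no gene of the 38 passed, with 3 at an unadjusted p below 0.05, where 1.56% of all genes were higher and 0.997% lower in pCTSH#1 (2.22% and 1.14% of genes as bright as the members). At an unadjusted p below 0.05 were 11.6% of all genes and 13.3% of those as bright. At 6 h again no gene passed, with 3 at an unadjusted p below 0.05, where 2.43% of all genes were higher and 1.56% lower (3.90% and 1.91% of genes as bright), and 14.6% of all genes and 18.2% of those as bright had an unadjusted p below 0.05. At 16 h Pttg1, Spc25 and Ccnb2 were higher in pCTSH#1 and none was lower, with 13 at an unadjusted p below 0.05, where 3.32% of all genes were higher and 1.96% lower (4.95% and 2.50% of genes as bright). The unadjusted p was below 0.05 for 18.0% of all genes and 22.8% of those as bright. The median difference over the 38 genes was 0.07 at 0 h, 0.06 at 6 h and 0.11 at 16 h.

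Pttg1 differed by 0.41 ± 0.07 at 16 h, from levels of 9.35, 9.43 and 9.43 in pCTSH#1 and 8.94, 9.05 and 8.99 in pcDNA (adjusted p = 0.00157). Spc25 differed by 0.39 ± 0.09, from 7.0, 7.25 and 7.40 in pCTSH#1 and 6.63, 6.91 and 6.93 in pcDNA (adjusted p = 0.0201). Ccnb2, a B-type cyclin, differed by 0.35 ± 0.09, from 9.12, 9.21 and 9.43 in pCTSH#1 and 8.74, 8.92 and 9.05 in pcDNA (adjusted p = 0.0323). The arrays of the 2 lines did not overlap for any of the 3 genes at 16 h. The same was true of 13 of the 38 genes at 16 h, and of 9 at 6 h and 7 at 0 h, where none passed. Lack of overlap therefore adds little to the calls, and its share over all genes was not counted. In a fit of only the arrays compared no member passed, and the adjusted p was 0.108 for Pttg1, 0.314 for Spc25 and 0.323 for Ccnb2. Pttg1 passed with any 1 array left out. Spc25 was lost without the first pcDNA array (adjusted p = 0.122) or the second or the third pCTSH#1 array (0.0697 and 0.104), and Ccnb2 without the first or second pcDNA array (0.172 and 0.0794) or the second or the third pCTSH#1 array (0.0614 and 0.148).

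The full course of Ccnb2 was 10.73, 10.81 and 10.68 at 0 h, 10.59, 10.55 and 10.50 at 6 h, and 9.12, 9.21 and 9.43 at 16 h in pCTSH#1. In pcDNA it was 10.57, 10.75 and 10.66 at 0 h, 10.51, 10.48 and 10.40 at 6 h, and 8.74, 8.92 and 9.05 at 16 h. Its levels at 0 and 6 h overlapped between the lines. Cenpf lay higher in pCTSH#1 at every time, and whether it passed depended on the processing. Its levels in pCTSH#1 were 10.46, 10.25 and 10.52 at 0 h, 10.38, 10.21 and 10.24 at 6 h, and 8.91, 9.23 and 9.29 at 16 h. In pcDNA they were 9.95, 9.97 and 9.96 at 0 h, 10.05, 9.95 and 9.80 at 6 h, and 8.63, 8.59 and 8.90 at 16 h, and in INS1 10.26, 9.81 and 9.97. The differences between pCTSH#1 and pcDNA were 0.45 ± 0.12 at 0 h (adjusted p = 0.0742), 0.34 ± 0.12 at 6 h (0.189) and 0.44 ± 0.12 at 16 h (0.0528). No pcDNA array at any of these times reached the pCTSH#1 arrays of the same time, but the lines did not overlap for 7, 9 and 13 of the 38 genes at 0, 6 and 16 h. Cenpf passed at 16 h with median centring, cyclic loess, the brighter 50% of probe sets, a trended robust variance or array weights (adjusted p = 0.0118 to 0.0478). It also passed without the first pCTSH#1 array (0.0192) or the third pcDNA array (0.0257). With each gene read as the mean of its probe sets Cenpf passed too (0.0482). It has only 1 probe set, so its own readings were the same there. At 0 h it passed with median centring, the brighter 50%, the trended robust variance or array weights (adjusted p = 0.0141 to 0.0399).

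**Figure D5:**
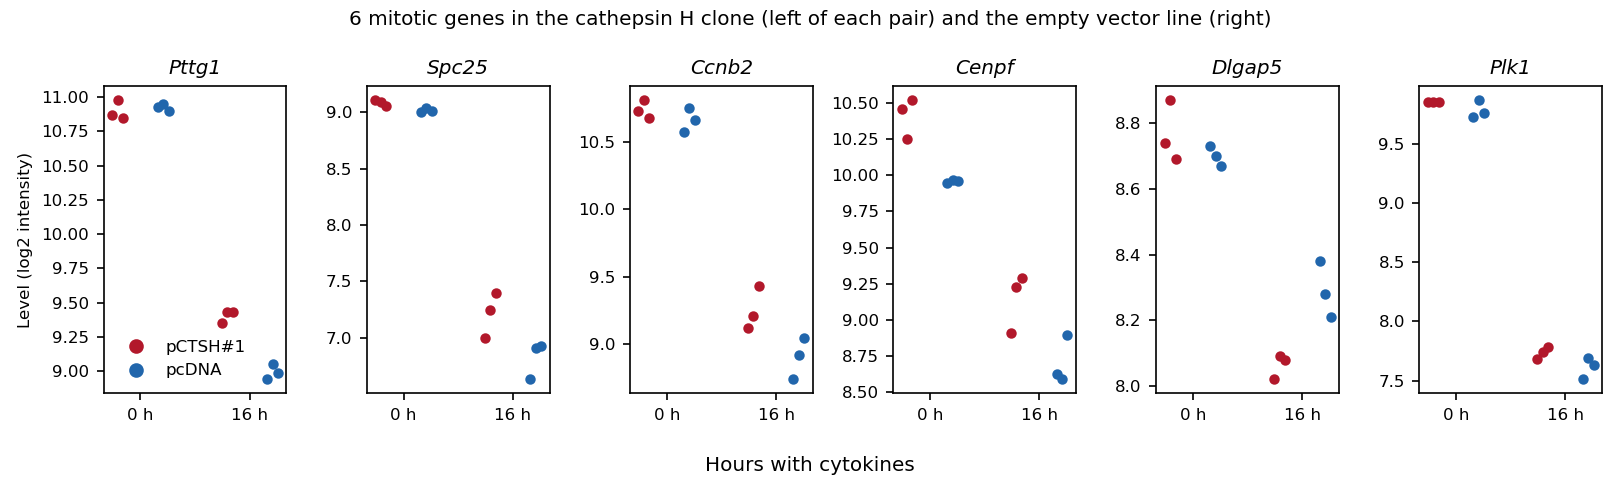
Levels (log2 intensity) of 6 mitotic genes at 0 and 16 h on each array, pCTSH#1 left of pcDNA in each pair; each panel has its own axis. At 16 h Pttg1, Spc25 and Ccnb2 are higher in pCTSH#1 with no overlap, Cenpf lies higher at both times and Dlgap5 lower at 16 h (-0.23), neither past the test, and Plk1 lies close together in both lines.

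The difference between the lines' responses, pCTSH#1 minus pcDNA, was tested as its own term and did not pass for any of the 38 genes. At 6 h the differences ran from -0.24 to 0.29, with 2 genes at an unadjusted p below 0.05 and a smallest adjusted p of 0.708. At 16 h they ran from -0.29 to 0.44, with 5 genes at an unadjusted p below 0.05. Among all genes 0.0149% passed upward and 0.104% downward at 6 h, and 0.164% and 0.112% at 16 h. Among genes as bright as the members, 0.0190% passed upward and 0.133% downward at 6 h, while 0.208% passed upward and 0.0758% downward at 16 h. An unadjusted p below 0.05 was found for 6.20% of all genes and 5.93% of those as bright at 6 h, and for 8.56% and 8.32% of them at 16 h. Standard errors of these differences were 0.10 to 0.17. The highest was Pttg1 at 16 h, 0.44 ± 0.10 (adjusted p = 0.0822), and the lowest was Dlgap5, -0.29 ± 0.10 (0.398). Restricting the test to the brighter 50% of probe sets gave Pttg1 an adjusted p of 0.0274, and a trended, robust variance 0.0067.

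The transfected lines were also set against untransfected INS1 without cytokines. In pCTSH#1 no mitotic gene passed against INS1, with 4 at an unadjusted p below 0.05, where 2.28% of all genes were higher and 1.16% lower (3.35% and 1.33% of genes as bright) and 13.4% (15.6%) had an unadjusted p below 0.05. In pcDNA none passed against INS1 either, with 0 at an unadjusted p below 0.05, where 0.00% of all genes were higher and 0.00% lower, and 4.43% (2.75% of genes as bright) had an unadjusted p below 0.05. The differences ran from -0.10 to 0.40 for pCTSH#1 and from -0.13 to 0.06 for pcDNA. The highest was Cenpf in pCTSH#1, at 0.40 ± 0.12 (adjusted p = 0.114), followed by Kif15 at 0.26 ± 0.08 (0.103). Without the first INS1 array, Cenpf passed (adjusted p = 0.0342).

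Genes of the same pathways outside the 40 were read from further lists. Their 16 h counts stand beside the shares of all genes given above, 30.1% falling and 25.2% rising in pCTSH#1 and 29.5% falling and 25.8% rising in pcDNA. Among genes as bright as the members, 41.9% fell and 35.4% rose in pCTSH#1, and 41.5% fell and 35.5% rose in pcDNA. That range is the members' own, and the lists were not matched to it. Ccnd1, with a mean level of 6.98, and Ube2s, with 12.01, lie outside it. Of 38 DNA replication genes measured, 18 fell and 1 rose at 6 h in pCTSH#1, and 27 fell and 1 rose in pcDNA, with median changes of -0.30 and -0.37. Among all genes at 6 h, 21.3% fell and 13.0% rose in pCTSH#1, and 24.6% fell and 14.5% rose in pcDNA. Of genes as bright as the members, 31.3% fell in pCTSH#1 and 35.6% in pcDNA. At 16 h 25 fell and 5 rose in pCTSH#1, and 24 fell and 5 rose in pcDNA, with medians of -0.50 and -0.51. Tyms, the enzyme that makes thymidylate, was among those that rose, by 0.71 ± 0.12 in pCTSH#1 and 0.87 ± 0.12 in pcDNA. Rrm2, a subunit of the enzyme that makes deoxynucleotides, changed by -0.60 ± 0.09 in pCTSH#1 and -0.76 ± 0.09 in pcDNA at 6 h, and by -1.57 ± 0.09 in pCTSH#1 and -1.63 ± 0.09 in pcDNA at 16 h. Of 33 other spindle, centrosome and cytokinesis genes, 26 fell and 1 rose in pCTSH#1 at 16 h, and 27 fell and 2 rose in pcDNA, with medians of -0.97 and -0.83. Fam83d, a spindle protein, changed by -2.23 ± 0.10 in pCTSH#1 and -2.21 ± 0.10 in pcDNA. Of 30 other centromere and kinetochore genes, 21 fell in each line, while 4 rose in pCTSH#1 and 5 in pcDNA, with medians of -0.55 and -0.68. The histone-fold protein Cenpw changed by -2.12 ± 0.10 in pCTSH#1 and -2.48 ± 0.10 in pcDNA, while Cenpj, a centriole protein, changed by 1.04 ± 0.14 in pCTSH#1 and 1.16 ± 0.14 in pcDNA.

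Of the cohesin, condensin and separase genes, 8 of 19 fell and 2 rose in pCTSH#1 at 16 h, and 8 fell and 3 rose in pcDNA, near the 41.9% and 41.5% of genes as bright as the members that fell, while fewer rose than the 35.4% and 35.5% among those. The condensin subunit Smc2 changed by -1.21 ± 0.08 in pCTSH#1 and -1.43 ± 0.08 in pcDNA. Of 18 genes of the anaphase-promoting complex, 8 fell and 6 rose in each line, near the shares among genes as bright as the members. For both of these lists the shares over all genes were lower, at 30.1% and 29.5% falling and 25.2% and 25.8% rising. Cdc27, a core subunit, changed by 1.61 ± 0.12 in pCTSH#1 and 1.70 ± 0.12 in pcDNA, and Ube2s, its chain-extending enzyme, by -0.95 ± 0.07 in pCTSH#1 and -1.07 ± 0.07 in pcDNA.

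Among 17 regulators of mitotic transcription, 10 fell in each line at 16 h, while 5 rose in pCTSH#1 and 2 in pcDNA. Mybl2 (B-Myb), which works with the MuvB complex, changed by -1.56 ± 0.15 in pCTSH#1 (adjusted p = 3.71e-08) and -1.93 ± 0.15 in pcDNA (1.57e-09). Foxm1, a factor that drives G2 and mitotic genes, changed by -0.41 ± 0.11 in pCTSH#1 (0.00371) and -0.34 ± 0.11 in pcDNA (0.0155). E2f1, a factor of the G1 to S step, changed by -1.61 ± 0.12 in pCTSH#1 and -1.69 ± 0.12 in pcDNA. At 6 h Mybl2 and Foxm1 did not pass in either line, with Mybl2 at -0.01 ± 0.15 in pCTSH#1 and -0.17 ± 0.15 in pcDNA and Foxm1 at -0.11 ± 0.11 in pCTSH#1 and -0.22 ± 0.11 in pcDNA.

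Of 22 CDK inhibitors, G1 cyclins and kinases, 8 rose and 8 fell at 16 h in each line, near the 35.4% and 35.5% that rose and the 41.9% and 41.5% that fell among genes as bright as the members. Over all genes the shares were lower, at 25.2% and 25.8% rising and 30.1% and 29.5% falling. Cdkn1a (p21), an inhibitor of cyclin-dependent kinases, had risen by 6 h, by 1.72 ± 0.10 in pCTSH#1 and 1.87 ± 0.10 in pcDNA, and stood at 1.88 ± 0.10 in pCTSH#1 and 2.10 ± 0.10 in pcDNA at 16 h. Its level was higher in pCTSH#1 than in pcDNA at 0 h (0.51 ± 0.10, adjusted p = 0.00525) and at 6 h (0.36 ± 0.10, 0.0465). At 16 h that difference did not pass (0.29 ± 0.10, 0.113). Gadd45b, a stress-induced regulator of the cell cycle, changed by 3.84 ± 0.14 in pCTSH#1 and 4.21 ± 0.14 in pcDNA at 6 h and by 4.70 ± 0.14 in pCTSH#1 and 4.69 ± 0.14 in pcDNA at 16 h. Its relative Gadd45a changed by 2.35 ± 0.11 in pCTSH#1 and 2.32 ± 0.11 in pcDNA at 16 h, and did not pass at 6 h, with 0.04 ± 0.11 in pCTSH#1 and -0.05 ± 0.11 in pcDNA. Ccnd1, a G1 cyclin, changed by 2.37 ± 0.14 in pCTSH#1 and 1.5 ± 0.14 in pcDNA at 16 h, from a level at 0 h that was lower in pCTSH#1 (-0.95 ± 0.14, adjusted p = 0.00066). At 16 h the lines differed in Ccnd1 by -0.08 ± 0.14 (0.866), and the response difference was 0.87 ± 0.20 (0.0862). Ccnd2, its relative, changed by -0.47 ± 0.11 in pCTSH#1 and -0.80 ± 0.11 in pcDNA. Cdkn2c (p18), an inhibitor of Cdk4 and Cdk6, fell by 2.19 ± 0.08 in pCTSH#1 and 2.27 ± 0.08 in pcDNA. It was higher in pCTSH#1 than in pcDNA at 6 h (0.43 ± 0.08, adjusted p = 0.00235) and at 16 h (0.29 ± 0.08, 0.042), and did not pass at 0 h (0.20 ± 0.08, 0.295).

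In all, 11 members had further probe sets, 15 together. Of these, 13 fell at 16 h in pCTSH#1 and 14 in pcDNA. Among all 31042 probe sets tested, 7961 fell in pCTSH#1 and 7801 in pcDNA. The brightest further probe set of Cdc20 changed by -2.21 in pCTSH#1 and -2.08 in pcDNA, close to the values above, while the dimmest, with a mean level of 4.28 near background, changed by -0.34 and -0.21. For Ccnb1 the second probe set, at the same mean level of 10.18, changed by -1.13 in pCTSH#1 and -1.11 in pcDNA, smaller than the values of the chosen one. The second probe set of Racgap1, at a mean level of 8.63, changed by -0.25 in pCTSH#1 and -0.35 in pcDNA, and that of Kif11, at 8.18, by -0.41 in pCTSH#1 and -0.38 in pcDNA, both smaller than the values of the chosen ones. For Mad2l1 the further probe sets changed by -0.52 and -0.68 in pCTSH#1 and by -0.65 and -0.76 in pcDNA, larger falls than the chosen one gave.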

How the data were processed

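RNA from 21 samples was measured on Affymetrix rat arrays, 1 array per sample. The deposited values are log2 intensities per probe set, made by the authors with RMA in affy, with limma also named, per the submitters' processing notes. Of 31137 probe sets, 95 controls were left out and 31042 tested. Of these, 19063 carried 1 gene symbol, 572 several and 11407 none in the platform annotation used here. A gene was read from its single-symbol probe set with the highest mean.

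limma 3.58.1 in R 4.3.3 (lmFit, eBayes) fitted 7 group means over the 21 arrays. Tables and figures were made with Python 3.11.15, pandas 2.3.3 and matplotlib 3.10.9. The fit was tested on simulated data, with 100 probe sets changed by 0.5 log2 units and 100 by 1 unit in pcDNA at 16 h. With the right sign it recovered 45% and 90% of them, with 10 false calls, so small changes can be missed. These shares hold for that setting, where no other probe set changed. Errors after ± are standard errors, with n = 3 arrays a group, and this number of arrays limits the precision. Whether the arrays of a group came from separate cultures is not given in the sources used here, so p-values measure only how far these arrays lie apart. Same-numbered arrays were checked for pairing: in 2 of 21 pairs of groups all 3 correlations of their deviations exceeded 0.1 (range -0.0903 to 0.244), so the numbers were not used as a block.

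The members and the pathway lists were chosen with earlier results of these data known. Every array's values are given for the 2 genes of each role group with the largest change in pcDNA at 16 h among those that passed, the 1 with the smallest, and genes that passed between the lines. Of each pathway list up to 3 lowest and 3 highest genes that passed could be named, with Foxm1, Mybl2, Cdkn1a, Ccnd1, Ccnd2 and Rrm2 always. Cenpf, Dlgap5, Cenpe and the other courses beyond this rule were chosen after their values were seen. Alternatives changed the centring, normalization, filter, variance model, weights, arrays in the fit, probe set per gene and block, and left out each array. Promoter sequences are RefSeq's, build GRCr8.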

Additional observations from a re-analysis of the deposited data

How the results depend on the processing

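Counts at 16 h moved little: with each array of the groups compared left out in turn, 38 to 38 genes were called in pCTSH#1 and 37 to 37 in pcDNA, and 36 to 37 in each line between 16 and 6 h. Counts at 6 h ranged from 12 to 15 in pCTSH#1 and from 10 to 15 in pcDNA when 1 array was left out, and cyclic loess gave 10 in pCTSH#1 against 16. For pCTSH#1 against pcDNA at 0 h, where none passed, centring on medians gave 1, the brighter 50% of probe sets 2, a trended robust variance 1 and array weights 2. At 6 h array weights gave 1. At 16 h, where 3 passed, the brighter 50% gave 8, the trended robust variance 7 and a fit of only the arrays compared 0. Leaving out the third pcDNA and first pCTSH#1 array at 16 h together, chosen after seeing the data, gave 5. Leaving out 1 array gave 1 to 6 at 16 h, with 6 without the first pCTSH#1 array and 1 without the second or the third. For the response difference at 16 h, and for pCTSH#1 against INS1, the brighter 50% and the trended robust variance each gave 1 against 0, and leaving out 1 array gave 0 to 1 against INS1. The causes of these shifts were not tested. No change turned its sign past the threshold.

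With the replicate number as a block, 20 genes passed at 6 h in pcDNA against 16 without it, 16 in pCTSH#1, and 3 between the lines at 16 h, so pairing moved no count by over 1.5 times. With 3 arrays a group, standard errors of 0.10 to 0.17 limit what a response difference could show.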
